A study of Sus scrofa with 12 samples.

Results

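The hepatic transcripts of serpins and other protease inhibitors were compared between piglets of the SINS high group and piglets of the SINS low group. Members were all transcripts of the array with a single gene symbol that named a serpin of clades A to I, an inter-alpha-trypsin inhibitor heavy chain (ITIH), a Kunitz-type (SPINT), Kazal-type (SPINK) or whey acidic protein type (WFDC) inhibitor, or that was A2M, AMBP, KNG1, HRG or CST3. This gave 44 of 25388 transcripts, which stand for 42 genes, and CSTB was not analysed here. The transcripts of CST3 and of SPINK2 each came as a pair with identical values, so that 42 transcripts carried distinct values. Transcripts of other serpins that were annotated with several gene IDs or with an uncharacterized locus were not members.

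Liver RNA of 12 suckling piglets was measured on 1 Affymetrix porcine gene array each, 6 livers of the SINS high group with high-grade signs of swine inflammation and necrosis syndrome (SINS) and 6 livers of the SINS low group with no or only low-grade signs. All piglets came from hybrid sows of a single herd inseminated with Pietrain semen, were scored on the third day of life, and were the extremes of a larger scored population. The labels give the sex as mixed and do not give the litter of a piglet, so litter, sex and group cannot be told apart. The sample titles carry a number for each piglet, and every number of the SINS low group is higher than every number of the SINS high group. What these numbers stand for is not stated, and anything that follows them cannot be told apart from the group. Each value is a log2 value after RMA, which corrects the background, normalizes the arrays against each other and summarizes the probes of a transcript, and a difference of 1 is a 2-fold difference. The array medians lay between 4.36 and 4.42 and the correlations between arrays between 0.964 and 0.988. The 6 measured hepatocyte markers, among them ALB and APOA1, had 0 called genes and a mean of 11.04 to 11.17 in SINS high livers and of 10.99 to 11.21 in SINS low livers.

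Serpins are proteins that trap a protease with a bait loop and are used up in the reaction, and the liver secretes many of them into plasma, where they hold clotting, fibrinolysis, complement and the proteases of neutrophils in check. Some of the ITIH heavy chains, such as ITIH1 and ITIH2, are bound to bikunin, the inhibitor encoded by AMBP, and stabilize hyaluronan in the matrix. Alpha-2-macroglobulin (A2M) entraps proteases of all classes. Kazal, Kunitz and whey acidic protein domains are small inhibitor modules that are found mostly in secretions and membranes of epithelia. In several mammals, plasma inhibitors such as antitrypsin, antichymotrypsin and ITIH4 belong to the acute-phase proteins, which the liver makes in larger or smaller amounts during inflammation.

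A transcript was called higher or lower in the SINS high group when the fold change exceeded 1.3 and limma gave an unadjusted p below 0.05. The study set the same limits but took its p from another test, here called the methods' t-test. Of the 44 member transcripts, 3 were called higher (SPINK5, SPINK4 and ITIH1), 2 were called lower (SERPINH1 and WFDC1) and 39 were not called. That is 11.4% of the members, beside 5.16% of all 25388 transcripts, and in the 2 directions 6.82% higher beside 2.12% and 4.55% lower beside 3.04%. An unadjusted p below 0.05 was reached by 10 members or 22.7%, beside 11.4% of all transcripts, and 7 of the 10 were higher in the SINS high group. The median log2(FC) was 0.05 over the members and 0.01 over all transcripts. None of the differences passed a correction over all transcripts, with 0 of 44 members at an adjusted p below 0.05 and a smallest adjusted p of 0.28 among members and 0.254 among all transcripts (limma, Benjamini-Hochberg). Without SINS high replicate 6, 171 of all transcripts but 0 members passed this correction, and the smallest adjusted p of a member was 0.0533. By the methods' t-test, 7 members or 15.9% had an unadjusted p below 0.05, beside 10.4% of all transcripts, and with the fold change 2 members or 4.55% were called (SPINK5 and WFDC1), beside 3.88% of all transcripts, a share near the background. In whole liver RNA, fewer cells of a type and less RNA per cell cannot be told apart.

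**Figure D1:**
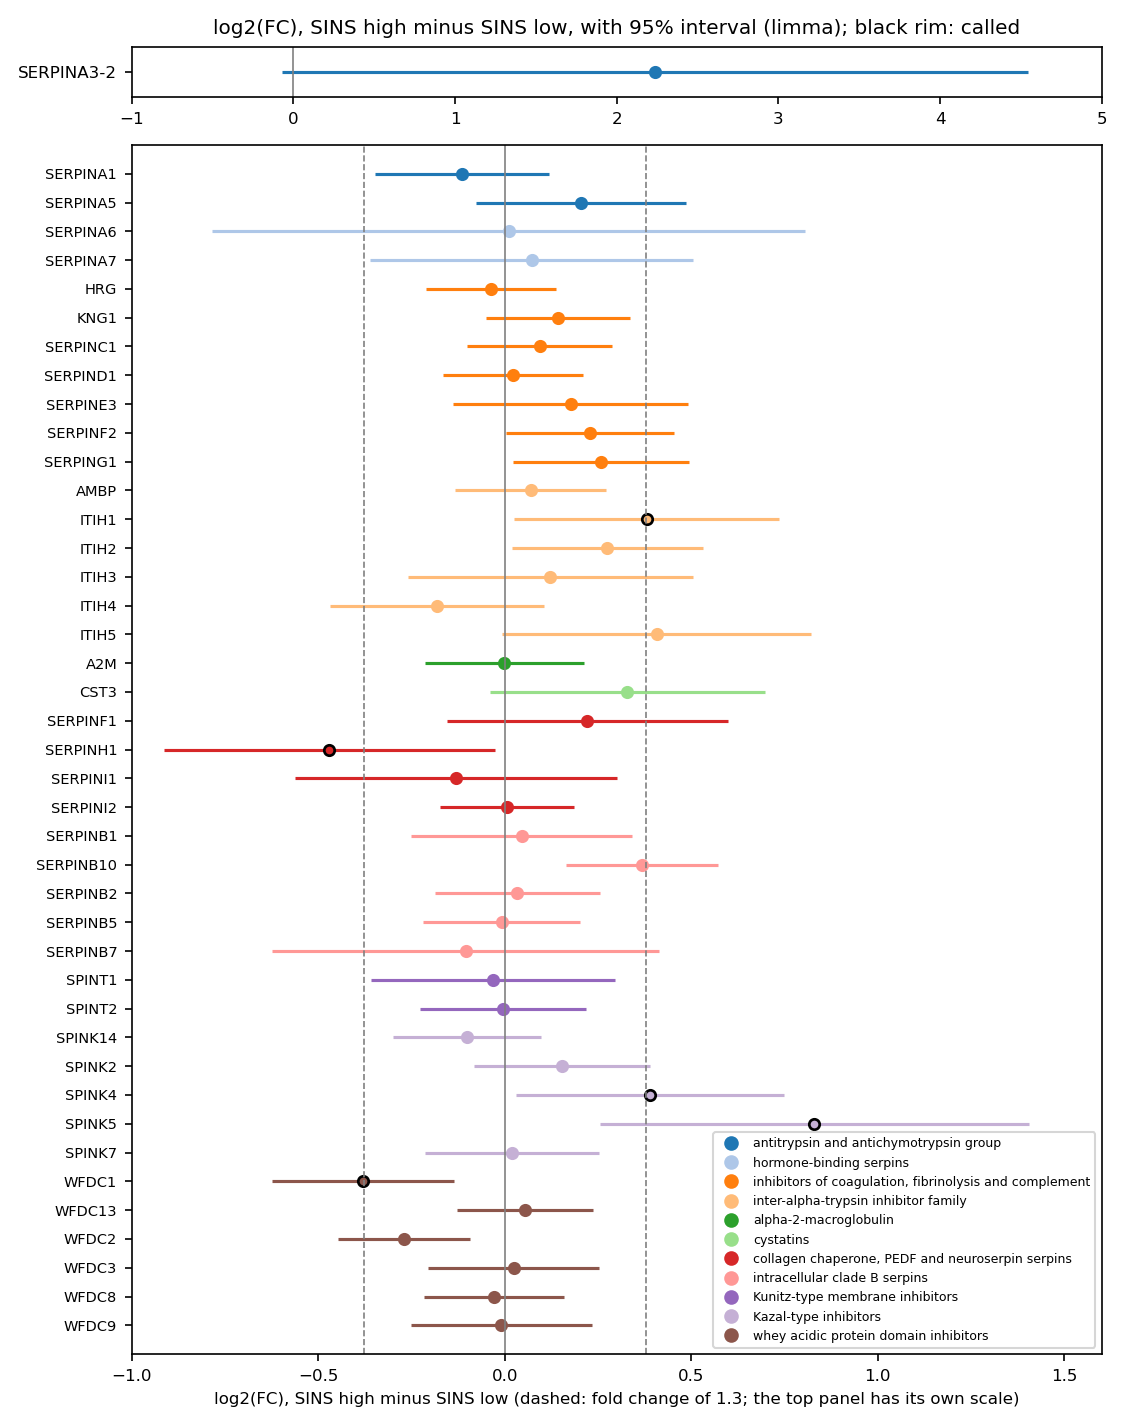
The plot shows the log2(FC) of the 42 distinct member transcripts (x axis, log2, SINS high minus SINS low) with the 95% interval from limma as a line, coloured by role, for 6 livers a group. The intervals of SPINK5, SPINK4, ITIH1, SERPINH1 and WFDC1, with a black rim, exclude 0 and their fold changes exceed 1.3, while SERPINA3-2 in the top panel has an interval from −0.07 to 4.55 on a scale of its own.

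When the values of each transcript were sorted, SERPINA3-2 had the widest gap between neighbouring livers on the array. This gap set off a pair of piglets in the SINS low group. The gene belongs to the porcine SERPINA3 family, whose human counterpart encodes alpha-1-antichymotrypsin, an inhibitor of cathepsin G and an acute-phase protein. In the SINS high group the log2 values were 10.59, 10.83, 10.60, 11, 11.22 and 11.13 in replicates 1 to 6. In the SINS low group they were 4.68, 10.47, 10.56, 10.58, 4.56 and 11.09. The transcript was thus at a similar level in 10 livers, between 10.47 and 11.22, and lay at 4.56 and 4.68 in SINS low replicates 5 and 1. The gap between these 2 livers and the lowest of the other 10 was 5.79, a 55.3-fold difference, in a set where the 10 upper livers span 0.75.

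This gap was the widest of all 25388 transcripts. The next had 4.77, only 4 transcripts had a gap of at least 4 and 24 one of at least 2, and the median widest gap was 0.21. Among the other members the widest gap was 0.89. No other transcript with a widest gap of at least 1 had this gap between exactly SINS low replicates 1 and 5 and the other 10 livers, in either direction. Gaps of a transcript other than its widest were not searched. The arrays of these 2 livers had a median correlation of 0.979 and 0.982 with the other arrays, within the 0.977 to 0.984 of all 12 arrays. The numbers in the titles of these 2 piglets are next to each other when those of the SINS low group are sorted. Whether the 2 piglets are related is not stated, and the tests treat them as independent. These descriptions were chosen after the values had been seen.

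**Figure D2:**
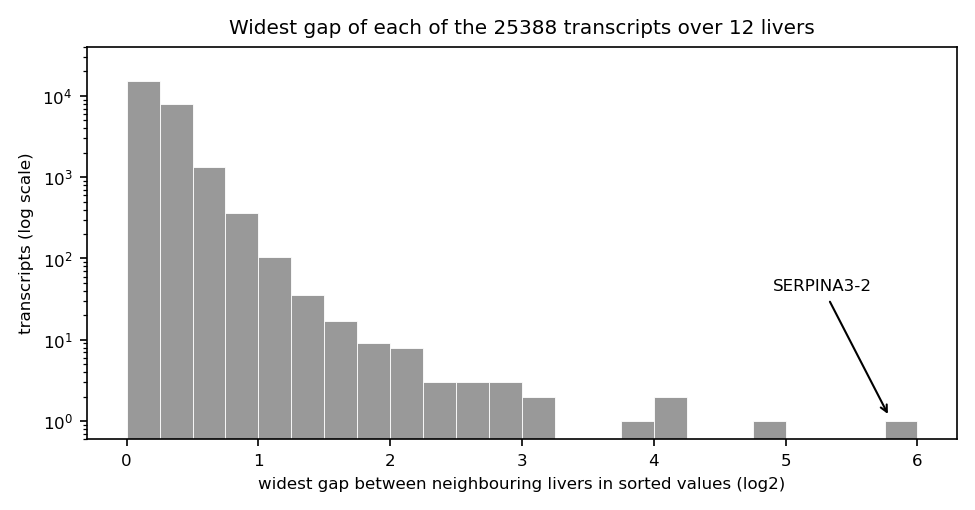
The histogram counts transcripts (y axis, log scale) by the widest gap between neighbouring livers when the 12 log2 values of a transcript are sorted (x axis, log2). SERPINA3-2, at 5.79, lies alone at the right end.

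The group difference of SERPINA3-2 depended on how these 2 livers were treated. The mean was 10.90 ± 0.27 in SINS high livers and 8.66 ± 3.13 in SINS low livers (SD, n = 6), which gives a log2(FC) of 2.24 with a standard error of 1.08 (95% interval −0.07 to 4.55). The transcript was not called, with an unadjusted p of 0.0564 and an adjusted p of 0.452 from limma, while the exact permutation test over all 924 assignments of the livers gave a two-sided p of 0.0476. It was called when SINS low replicate 2, 3, 4 or 6 was left out (highest log2(FC) 2.73, without replicate 6) and not when replicate 1 or 5 was (lowest 1.42, without replicate 5). With both of these livers left out, an alternative chosen after the values were seen, the mean of the other 4 SINS low livers was 10.68 ± 0.28 (SD, n = 4) and the log2(FC) fell to 0.22 (standard error 0.16, adjusted p = 0.669 from limma). By rank, 5 of the 6 SINS low livers lay below every SINS high liver, and SINS low replicate 6, at 11.09, lay among the upper SINS high livers. The medians were 10.92 in SINS high livers and 10.52 in SINS low livers, and an exact permutation test of the ranks, also chosen afterwards, gave a two-sided p of 0.026.

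The neighbouring genes did not show the pattern. In the RefSeq annotation of the pig assembly Sscrofa11.1, 15 genes run from SERPINA6 to SERPINA3-2, 4 of them are members (SERPINA6, SERPINA1, SERPINA5 and SERPINA3-2), and 8 of them have a transcript of a single gene on the array. LOC396685, which lies 2 genes from SERPINA3-2, had values between 11.47 and 11.85 over all 12 livers, with 11.48 in SINS low replicate 1 and 11.70 in SINS low replicate 5. LOC396684, which lies 4 genes away, had 8.94 and 10.13 in these 2 livers and a range of 8.90 to 10.28. GSC, the next gene on the other side, lay between 3.93 and 4.76 in its brighter transcript. The pig has several similar SERPINA3 genes side by side, so the values of this transcript may include signal of other copies, which was not tested.

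**Figure D3:**
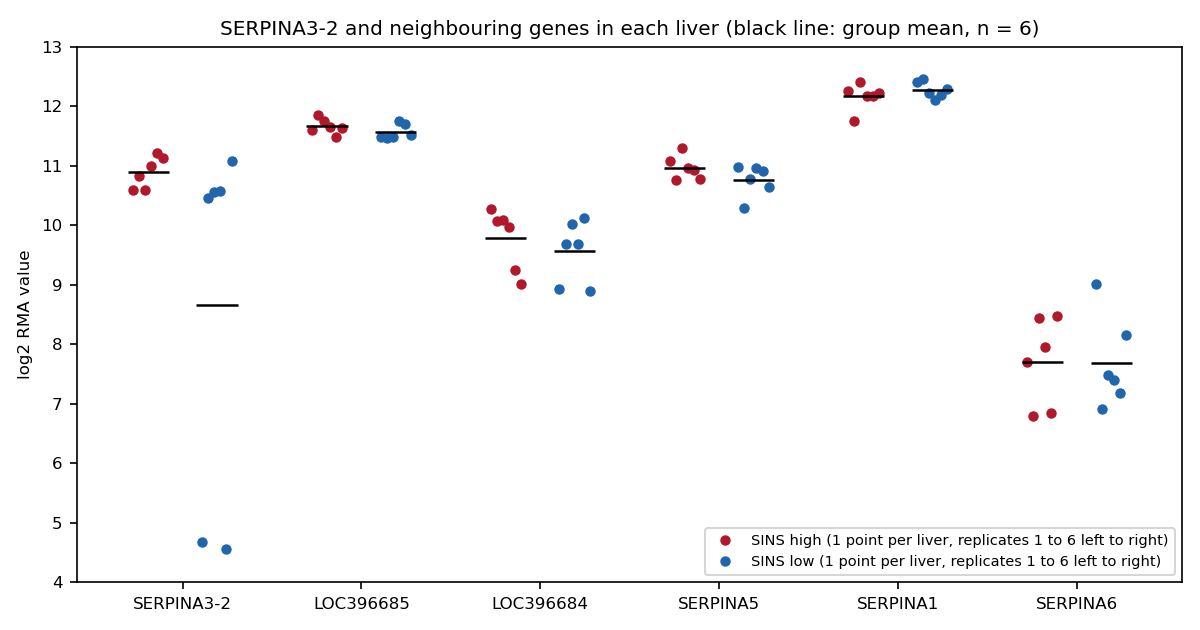
Points show the log2 RMA value (y axis) of SERPINA3-2 and of 5 neighbouring genes in each of 6 SINS high livers (red, left) and 6 SINS low livers (blue, right), with the group mean as a black line. The SINS low livers of replicates 1 and 5 lie at 4.68 and 4.56 for SERPINA3-2 and within the range of the other livers for LOC396685, SERPINA5 and SERPINA1.

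Since the livers fell into separate clusters for SERPINA3-2, its likeness to the other members was computed within the 10 livers at the upper level. Over these 10 livers and 41 other distinct members, no relation held after adjustment (Benjamini-Hochberg p of at least 0.904 for Pearson's r and of 1 for Spearman's rho). The members with the highest r were SPINK2 with 0.44 (rho 0.10, permutation p = 0.221 and 0.775), WFDC9 with 0.41 (rho 0.30, p = 0.233 and 0.385 by permutation) and SERPINA7 with 0.23 (rho 0.29, p = 0.583 and 0.419 by permutation). The lowest was SERPINB7 with −0.70 (rho −0.67, p = 0.0221 and 0.0394 by permutation). With the 2 livers farthest from the median of SERPINA3-2 left out, r was 0.44, 0.54, 0.10 and −0.57 in the same order of genes.

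Neither of the other inhibitors of the antitrypsin branch was called. SERPINA1 encodes alpha-1-antitrypsin, the main plasma inhibitor of neutrophil elastase. Its log2 values had a lowest, median and highest of 11.76, 12.21 and 12.41 in SINS high livers and of 12.11, 12.26 and 12.46 in SINS low livers. The groups overlapped, with a log2(FC) of −0.12 (standard error 0.11, 95% interval −0.35 to 0.12, exact permutation p = 0.34). SERPINA5, the protein C inhibitor, ranged from 10.76 to 11.31 in SINS high livers and from 10.30 to 10.99 in SINS low livers, with a log2(FC) of 0.20 (95% interval −0.08 to 0.49). This interval leaves room for a difference of more than 1.3-fold towards higher values.

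The hormone carriers among the serpins were not called, and SERPINA6 varied widely within both groups. SERPINA6 encodes the cortisol-binding globulin of plasma. Its values lay at 7.70 ± 0.74 in SINS high livers and 7.70 ± 0.77 in SINS low livers (SD, n = 6), from 6.80 in SINS high replicate 2 to 9.02 in SINS low replicate 1, with a log2(FC) of 0.01 (95% interval −0.79 to 0.81). SERPINA7, the thyroxine-binding globulin, had a lowest, median and highest of 6.22, 7.21 and 7.60 in SINS high livers and of 6.49, 7.15 and 7.24 in SINS low livers. Its log2(FC) was 0.07 (95% interval −0.36 to 0.50, exact permutation p = 0.755). The interval of SERPINA6 leaves room for a difference of more than 1.3-fold in either direction, and that of SERPINA7 for one towards higher values.

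Of the inhibitors of coagulation, fibrinolysis and complement, 0 of 7 were called, and 6 of 7 had a positive log2(FC) with a median of 0.14. SERPING1, the C1 inhibitor that stops C1R, C1S and plasma kallikrein, had a lowest, median and highest of 10.68, 11 and 11.18 in SINS high livers and of 10.56, 10.69 and 11.01 in SINS low livers. In 3 SINS high livers it exceeded every SINS low liver, and its log2(FC) was 0.26 (standard error 0.11, p = 0.0339 from limma, exact permutation p = 0.0411, adjusted p = 0.395). SERPINF2, the alpha-2-antiplasmin that inhibits plasmin, was 9.56 ± 0.21 in SINS high livers and 9.33 ± 0.12 in SINS low livers (SD, n = 6). Its log2(FC) of 0.23 (standard error 0.10, exact permutation p = 0.0281, adjusted p = 0.431 from limma) was likewise below the fold change of the filter, and 4 SINS high livers lay above all SINS low livers.

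The remaining members of this group had intervals that stayed within a 1.3-fold difference, apart from SERPINE3. KNG1, the kininogen from which bradykinin is released, ranged from 11.16 to 11.53 in SINS high livers and from 11.09 to 11.39 in SINS low livers, with a log2(FC) of 0.14 (95% interval −0.05 to 0.33). SERPINC1, the antithrombin that blocks thrombin and factor Xa, had values of 11.22 to 11.71 in SINS high livers and 11.29 to 11.52 in SINS low livers, with a log2(FC) of 0.09 (95% interval −0.10 to 0.29). SERPIND1, the heparin cofactor that also blocks thrombin, ranged from 11.12 to 11.30 in SINS high livers and from 10.90 to 11.35 in SINS low livers and had a log2(FC) of 0.02 (95% interval −0.17 to 0.21). The histidine-rich glycoprotein HRG, which binds heparin and plasminogen, had 11.76 to 11.95 in SINS high livers and 11.77 to 12.02 in SINS low livers and a log2(FC) of −0.04 (95% interval −0.21 to 0.14). SERPINE3, placed here by its clade, had a log2(FC) of 0.18 (95% interval −0.14 to 0.49).

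In the inter-alpha-trypsin inhibitor family, the heavy chains ITIH1 and ITIH2 had the smallest p, and the bikunin gene AMBP did not follow them. ITIH1 was called higher, with a lowest, median and highest of 10.93, 11.07 and 11.43 in SINS high livers and of 10.05, 10.82 and 11.23 in SINS low livers. The groups overlapped, but 4 of the 6 SINS low livers lay below every SINS high liver, and the log2(FC) was 0.38 (standard error 0.17, p = 0.0375 from limma, exact permutation p = 0.0519, adjusted p = 0.407). The call rested on a fold change just above the limit: it was lost when any of SINS low replicates 2 and 6 or SINS high replicates 1, 2 and 3 was left out, and the log2(FC) was 0.24 without SINS low replicate 6. It was also lost with the methods' t-test, array weights, repeated quantile normalization (0.37) and median centring (0.37). ITIH2, with 10.90 to 11.51 in SINS high livers and 10.70 to 11.17 in SINS low livers, differed by a log2(FC) of 0.27 (standard error 0.12, exact permutation p = 0.0584, adjusted p = 0.407 from limma), and 4 SINS high livers exceeded all SINS low livers. AMBP lay between 10.83 and 11.01 in SINS high livers and between 10.63 and 11.11 in SINS low livers, with a log2(FC) of 0.07 (95% interval −0.13 to 0.27).

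ITIH3 and ITIH4 lie directly beside ITIH1 in the RefSeq annotation and gave smaller or opposite values. ITIH3 had a log2(FC) of 0.12 (95% interval −0.26 to 0.50), with 9.81 in SINS low replicate 2 as its lowest value. ITIH4, the heavy chain that is a major acute-phase protein of the pig, had a lowest, median and highest of 11.28, 11.59 and 11.89 in SINS high livers and of 11.46, 11.77 and 12.11 in SINS low livers. Its log2(FC) was −0.18 (standard error 0.13, exact permutation p = 0.212), and 2 SINS high livers lay below every SINS low liver. ITIH5, a more distant heavy chain next to ITIH2, had 5.93 ± 0.31 in SINS high livers and 5.52 ± 0.44 in SINS low livers (SD, n = 6). Its log2(FC) of 0.41 exceeded the fold change of the filter and missed its p (exact permutation p = 0.0996, limma p = 0.0541), and it was called without SINS low replicate 5 or SINS high replicate 6, without SINS low replicates 1 and 5 together, and with array weights, repeated quantile normalization and the replicate block.

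A2M and the cystatin CST3 were not called. A2M had a lowest, median and highest of 11.32, 11.45 and 11.64 in SINS high livers and of 11.29, 11.42 and 11.70 in SINS low livers. Its log2(FC) of −0.0017 had a 95% interval of −0.21 to 0.21, which lies within a 1.3-fold difference of the array values. Whether the array narrows differences at values this high was not tested. CST3, the cystatin C that inhibits cysteine cathepsins, had 7.22, 7.74 and 8.46 as lowest, median and highest value in SINS high livers and 7.19, 7.47 and 7.70 in SINS low livers. In 3 SINS high livers it was above all SINS low livers, with a log2(FC) of 0.33 (standard error 0.17, exact permutation p = 0.115), and leaving out single arrays moved it between 0.19 without SINS high replicate 3 and 0.44 without SINS high replicate 2, where it was called.

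SERPINH1 was called lower in the SINS high group. It encodes HSP47, the chaperone of collagen in the endoplasmic reticulum, and is a serpin by descent that inhibits no protease. Its lowest, median and highest values were 6.29, 6.61 and 7.40 in SINS high livers and 6.68, 7.34 and 7.57 in SINS low livers. In 4 SINS high livers it lay below all SINS low livers, while SINS high replicates 4 and 6 were at 7.22 and 7.40, and the log2(FC) was −0.47 (standard error 0.21, p = 0.039 from limma, exact permutation p = 0.0714, adjusted p = 0.411). The call was lost when any of SINS low replicates 1, 2, 3 and 6 or SINS high replicates 1, 2, 3 and 5 was left out, with the smallest difference, −0.38, without SINS high replicate 2. The methods' t-test and repeated quantile normalization (−0.43) also ended it. Of 11 stellate cell and fibroblast markers, whose cells make collagen, 0 were called, with a median log2(FC) of −0.16 and a mean of 5.99 to 7.08 in SINS high livers and 5.96 to 6.89 in SINS low livers. Their log2(FC) ran from −0.64 for COL1A1 (standard error 0.33) to 0.30 for RGS5 (standard error 0.29), with −0.03 for COL3A1, and the part of these cells in the SERPINH1 values was not tested.

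The other serpins of this branch were not called. SERPINF1, the pigment epithelium-derived factor, is separated from SERPINF2 by 1 gene and had a log2(FC) of 0.22 (95% interval −0.15 to 0.60). The neuroserpin SERPINI1 had −0.13 (95% interval −0.56 to 0.30), and SERPINI2, among the dimmest 25% of transcripts, 0.01.

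**Figure D4:**
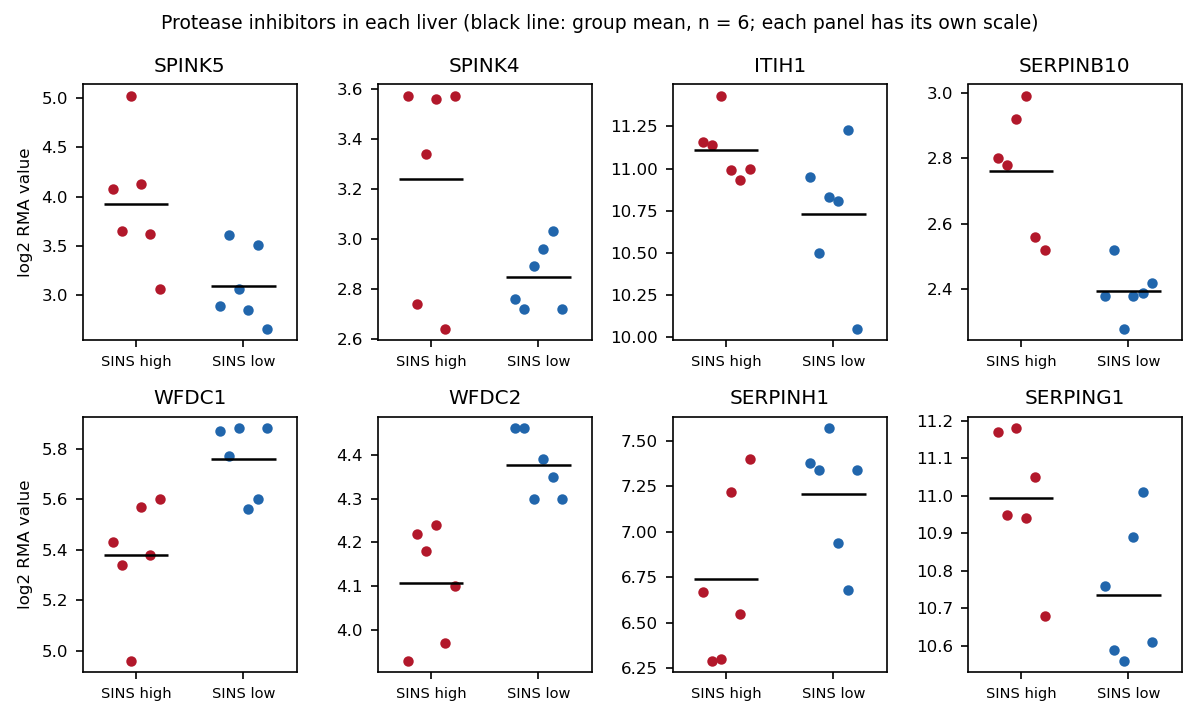
Each panel shows the log2 RMA value (y axis, own scale) of a member in the 6 SINS high livers (red, left) and the 6 SINS low livers (blue, right), with the group mean as a black line. The groups are separate for WFDC2, at 3.93 to 4.24 and 4.30 to 4.46, and overlap or touch in the other 7 panels.

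Of the Kazal-type inhibitors, SPINK5 and SPINK4 were called higher in the SINS high group. SPINK5 encodes LEKTI, an inhibitor of the kallikrein-related peptidases of the epidermis. Its lowest, median and highest values were 3.06, 3.87 and 5.02 in SINS high livers and 2.66, 2.98 and 3.61 in SINS low livers. SPINK5 was dim, with a mean of 3.51 over the 12 livers beside a median of 4.39 over all transcripts. In 5 of the 6 SINS high livers it lay above every SINS low liver, SINS high replicate 6 being the exception at 3.06. The log2(FC) was 0.83, a fold of 1.78 (standard error 0.27, p = 0.0079 from limma, exact permutation p = 0.013, adjusted p = 0.304). SPINK5 was called in all 12 fits that each left out 1 array, with a log2(FC) of 0.61 to 1.00, and it was called under every alternative of the procedure.

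SPINK4, a Kazal inhibitor of goblet cells in the gut, lay at 2.64, 3.45 and 3.57 as lowest, median and highest in the SINS high group and at 2.72, 2.83 and 3.03 in the SINS low group. The SINS high livers fell apart, with 4 above every SINS low liver and replicates 2 and 5 at 2.74 and 2.64. The log2(FC) was 0.39, a fold of 1.31 (standard error 0.17, p = 0.0356 from limma, exact permutation p = 0.0628). The call was lost when any of SINS low replicates 1, 2 and 6 or SINS high replicates 1, 3, 4 and 6 was left out, with the lowest log2(FC), 0.32, without SINS high replicate 1 or 6. It was also lost with the methods' t-test, repeated quantile normalization (0.36) and median centring (0.38). SPINK2 had a log2(FC) of 0.15 (95% interval −0.08 to 0.39), SPINK7 of 0.02 and SPINK14 of −0.10, the last 2 among the dimmest 25% of transcripts. In the RefSeq annotation 1 gene lies between SPINK5 and SPINK14 and 5 between SPINK14 and SPINK7.

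Of the whey acidic protein family, WFDC1 was called lower, and WFDC2 was the only member without overlap between the groups. WFDC2, known as HE4 and made by secretory epithelia, ranged from 3.93 to 4.24 with a median of 4.14 in SINS high livers and from 4.30 to 4.46 with a median of 4.37 in SINS low livers. All 6 SINS high livers lay below all 6 SINS low livers, and the exact permutation p of 0.00216 is the smallest that 6 against 6 livers allow. Its log2(FC) of −0.27 (standard error 0.08, adjusted p = 0.291 from limma) was below the fold change of the filter. This is 1 of 44 members or 2.27%, beside 0.429% of all transcripts without overlap in either direction and 0.205% in this one.

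WFDC1, a secreted protein also called ps20, had a lowest, median and highest of 4.96, 5.41 and 5.60 in SINS high livers and of 5.56, 5.82 and 5.88 in SINS low livers. In 4 SINS high livers it lay below every SINS low liver. The log2(FC) was −0.38 (standard error 0.11, p = 0.00466 from limma, exact permutation p = 0.0108, adjusted p = 0.287). It lost the call when any of SINS low replicates 1, 2, 3 and 6 or SINS high replicates 2 and 3 was left out, with −0.30 without SINS high replicate 3, and also with array weights (−0.37) and repeated quantile normalization (−0.36). The other 4 members, WFDC3, WFDC8, WFDC9 and WFDC13, lie near WFDC2 in the RefSeq annotation and had log2(FC) values of 0.02, −0.03, −0.01 and 0.06. WFDC8, WFDC9 and WFDC13 were among the dimmest 25% of transcripts. Of 6 bile duct markers 0 were called, with a median log2(FC) of −0.05 and a mean of 5.99 to 6.28 in SINS high livers and of 6.20 to 6.40 in SINS low livers, and the part of these cells in the values of WFDC2 was not tested.

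The Kunitz-type inhibitors SPINT1 and SPINT2, which restrain matriptase and hepsin on epithelial membranes, were near 0. SPINT1 had a lowest, median and highest of 3.30, 3.71 and 4.05 in SINS high livers and of 3.21, 3.76 and 4.06 in SINS low livers, with a log2(FC) of −0.03 (95% interval −0.36 to 0.29). SPINT2 ranged from 4.78 to 5.08 in SINS high livers and from 4.65 to 5.23 in SINS low livers, with a log2(FC) of −0.005 (95% interval −0.23 to 0.22).

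Among the clade B serpins, which act inside cells, SERPINB10 had the smallest limma p of all members and missed the fold change of the filter. It is expressed in blood cell precursors of man. Its values were 2.52, 2.79 and 2.99 as lowest, median and highest in SINS high livers and 2.28, 2.39 and 2.52 in SINS low livers, so that 5 SINS high livers lay above all SINS low livers and the groups touched at 2.52. The log2(FC) was 0.37, a fold of 1.29 (standard error 0.10, p = 0.00169 from limma, exact permutation p = 0.00433, adjusted p = 0.28), in a transcript among the dimmest 25% of the array. It was called without SINS low replicate 2 (0.39) and without SINS high replicate 5 (0.41) or 6, and with array weights (0.39). Of 8 granulocyte markers 1, MPO, was called higher and 0 lower, with a median log2(FC) of 0.39 and a mean of 3.97 to 4.77 in SINS high livers and of 3.64 to 4.63 in SINS low livers. Only LCN2 was negative among them, at −0.34. Of 10 erythroid markers 6 were called higher and 0 lower, beside 2.12% and 3.04% of all transcripts. Only TFRC was negative among these, at −0.74 (standard error 0.42). The erythroid markers had a mean of 4.42 to 5.15 in SINS high livers and of 3.80 to 4.78 in SINS low livers. The part of granulocytes or erythroid cells in the SERPINB10 values was not tested.

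None of the other 4 clade B serpins was called. SERPINB1, the inhibitor of elastase, cathepsin G and proteinase 3 in neutrophils, had 5.86 to 6.59 in SINS high livers and 5.91 to 6.64 in SINS low livers, with a log2(FC) of 0.05 (95% interval −0.25 to 0.34). SERPINB2, the plasminogen activator inhibitor of macrophages, lies beside SERPINB10 and had 0.03 (95% interval −0.19 to 0.26). SERPINB5, known as maspin, had −0.01 and SERPINB7 −0.11 (95% interval −0.62 to 0.41).

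Some livers were high or low for many members at once. SINS high replicate 3 had the highest value of the 12 livers for 8 of the 42 distinct members and the lowest for 1, and SINS low replicate 6 had the lowest for 9 and the highest for 4. SINS high replicate 2 was lowest for 7 members, among them SERPINA1, SERPINA6 and SERPINA7. The median deviation of the members from their own means ranged from −0.04 to 0.09 in the SINS high livers and from −0.12 to −0.02 in the SINS low livers. Neighbouring genes did not always share a direction: ITIH1 had 0.38 and ITIH4 −0.18, and SPINK5 had 0.83 and SPINK14 −0.10, whereas SERPINF1 and SERPINF2 had 0.22 and 0.23.

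**Figure D5:**
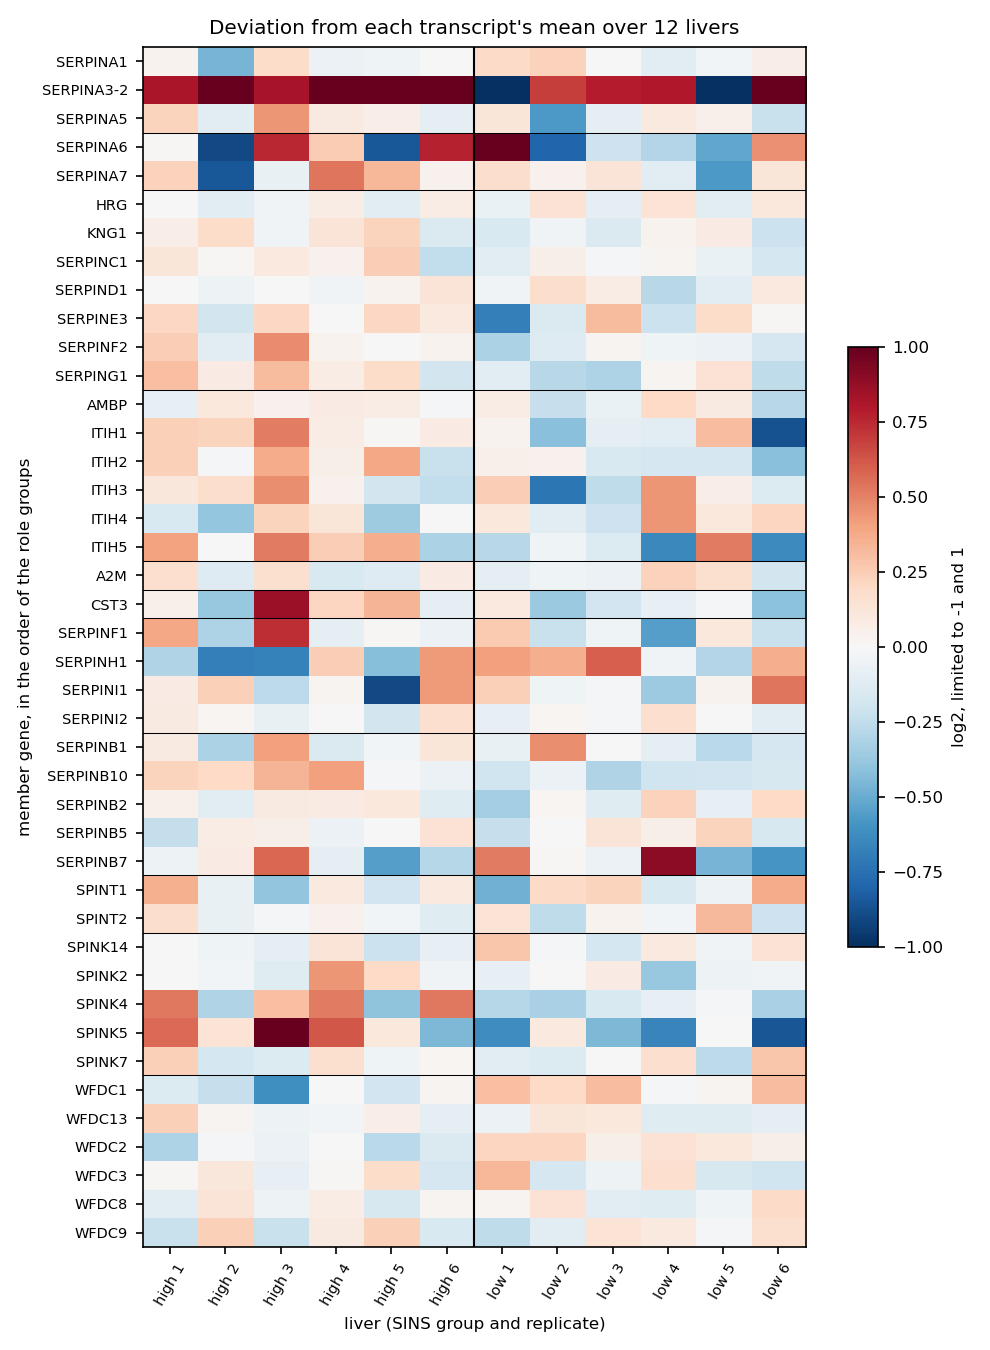
The map shows the deviation of each liver (columns, 6 SINS high left of 6 SINS low) from the mean of a transcript over 12 livers (log2, limited to −1 and 1) for the 42 distinct members in the order of their roles (rows). SERPINA3-2 reaches the lower limit in SINS low replicates 1 and 5, and WFDC2 is below its mean in the SINS high livers and above it in the SINS low livers.

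Of 32 measured proteases in 5 lists of targets of such inhibitors, 4 or 12.5% were called, 2 higher and 2 lower, beside 5.16% of all transcripts. Of 8 measured proteases of coagulation and fibrinolysis, 0 were called higher and 1 lower, with a median log2(FC) of 0.17. The gene called lower was PLAT, the tissue plasminogen activator, with 3.35 ± 0.33 in SINS high livers and 3.80 ± 0.40 in SINS low livers (SD, n = 6) and a log2(FC) of −0.45 (exact permutation p = 0.0628, limma p = 0.0325). Of 5 complement proteases, the targets and relatives of the targets of SERPING1, 0 were called, with a median of 0.30, from 0.11 for MASP1 to 0.64 for C1S (standard error 0.40). Of 7 membrane and activator serine proteases and of 3 granulocyte proteases, 0 were called, with medians of 0.00 and −0.02.

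Of 9 measured cysteine proteases, 2 were called higher and 1 lower, beside 2.12% and 3.04% of all transcripts. The 9 were cathepsins, which CST3 inhibits, and the legumain gene LGMN, with a median log2(FC) of 0.15. CTSS, the cathepsin of antigen-presenting cells, was 8.38 ± 0.27 in SINS high livers and 7.91 ± 0.38 in SINS low livers (SD, n = 6), with a log2(FC) of 0.47 (exact permutation p = 0.0303). CTSK, known from bone-resorbing cells, had 0.40 (exact permutation p = 0.0216), and CTSO −0.54 (exact permutation p = 0.0931, limma p = 0.0499). Of 10 Kupffer cell markers 4 were called higher and 0 lower, beside 2.12% and 3.04% of all transcripts, and only MARCO was negative, at −0.23 (standard error 0.21). These markers had a mean of 7.13 to 7.85 in SINS high livers and of 6.82 to 7.36 in SINS low livers. The part of these macrophages in the values of CTSS was not tested. Of 6 receptors that clear inhibitors from plasma, 0 were called.

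Of 13 other acute-phase plasma proteins, 2 were called higher, 0 lower and 11 were not called, beside 2.12% higher and 3.04% lower of all transcripts. Their median log2(FC) was 0.11. The genes called were CRP with 0.97 (standard error 0.32, exact permutation p = 0.026) and the ceruloplasmin gene CP with 0.75 (standard error 0.27, exact permutation p = 0.0455), which the study had picked on these same piglets for qPCR and which are not independent evidence. The 11 others ran from −0.34 for LCN2 (standard error 0.35) to 1.26 for the hepcidin gene HAMP (standard error 0.77). Of these, HPX, which encodes the haem carrier hemopexin, had the smallest p, with a log2(FC) of 0.32 (standard error 0.10, exact permutation p = 0.00649), which is less than 1.3-fold. The haptoglobin gene HP, also among the 11, had 0.12 (standard error 0.09, exact permutation p = 0.0952) at a SINS high mean of 12.24. By qPCR the study reported HP mRNA as significantly increased in the SINS high group, and the reason for this difference was not tested. Of 5 plasma proteins that fall in the acute phase of several mammals, 0 were called, with a median of 0.01. The interleukin-6, STAT3 and C/EBP pathway drives many acute-phase genes. The 12 measured genes listed as its regulators also held IL1R1 and the NF-κB inhibitor genes NFKBIA and NFKBIZ. Of the 12, 2 were called higher and 0 lower, beside 2.12% and 3.04% of all transcripts. They were STAT3 with 0.40 (standard error 0.16, exact permutation p = 0.0498) and NFKBIZ with 0.51 (standard error 0.14, exact permutation p = 0.00866). Of 9 hepatocyte transcription factors, 0 were called.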

How the data were processed

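The authors hybridized biotin-labelled liver RNA of 12 piglets to Affymetrix Porcine Gene 1.0 arrays and computed log2 values with RMA in Expression Console (versions and genome build not given in the sources used here). The deposited log2 values were not transformed further. Gene symbols came from the platform annotation, in which 13257 of 25388 transcripts had 1 symbol, and neighbouring genes from RefSeq (42 of 42 member genes matched). Coordinates and sequences were not used here.

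Groups were compared over all transcripts with limma 3.58.1 (lmFit, then eBayes; R 4.3.3), with Benjamini-Hochberg adjustment. Single transcripts were also tested by exact permutation over 924 assignments, two-sided, and correlations by 100000 permutations. Figures were made with matplotlib 3.10.9. The number of arrays limits the precision. Whether the array narrows differences among the brightest transcripts, such as SERPINA1, HRG and SERPINC1, was not tested, so their intervals hold for array values only. Whether samples of a group came from separate litters is not stated, so p-values measure only the spread between these livers. Values of different transcripts were not compared as levels, apart from saying which transcripts were dim or bright on the array.

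The members and lists were chosen with earlier results of these data known. Every member is named. Values per liver or per group go to SERPINA3-2, called members, the 10 members with the highest mean and the smallest p in each of 11 role groups, and from each other list the called genes (at most 4). For a list gene with several transcripts the one with the highest mean was taken. Genes at the ends of a list's range, HPX, HP and COL3A1 were named outside this rule after their values were seen. Alternatives were the methods' t-test, an intensity trend with robust eBayes, array weights, leaving out the dimmest 25% of transcripts, repeated quantile normalization, median centring, a replicate block, a fold change above 1.5, 1 transcript per gene and leaving out each array.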

Additional observations from a re-analysis of the deposited data

Results flagged for a closer look

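In 2 of the 40 groups of 6 values tested for the members described in full, 1 liver stood far from the others of its group, and chance gives this in about 1 in 20 groups. SERPINA1 was 11.76 in SINS high replicate 2, while the other 5 livers of the SINS high group lay between 12.17 and 12.41. SERPINA7 was 6.49 in SINS low replicate 5, while the other 5 livers of the SINS low group lay between 6.96 and 7.24. The 2 low values of SERPINA3-2 in the SINS low group lie close to each other and are not found by a test for a single outlying liver.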

How the results depend on the processing

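Of the 5 calls, that of SPINK5 held under every alternative tried. The counts, 3 higher and 2 lower, became 1 and 1 with the methods' t-test, 1 and 2 with median centring, 4 and 1 with array weights (ITIH5 and SERPINB10 gained, ITIH1 and WFDC1 lost), 2 and 0 with repeated quantile normalization (ITIH5 gained, all but SPINK5 lost), and 1 and 0 at a fold change above 1.5. The other 4 members lay near the limits of the filter. When each array was left out, 1 to 4 members were higher and 0 to 2 lower. The median log2(FC) over the members then lay between 0.033 and 0.078, against 0.093 without the dimmest 25% of transcripts. The log2(FC) of SERPINA3-2 lay between 1.42 and 2.73 when each array was left out. An exact test of the ranks of SERPINA3-2, chosen after seeing the data, passed 0.05 with a difference of medians of 0.40. Leaving out SINS low replicates 1 and 5 together, also chosen then, gave 3 members higher and 2 lower, of which 4 were among the 5 calls: SPINK4 was lost and ITIH5 gained. Differences near 0 changed sign: SERPIND1 to −0.0011 with array weights and A2M to 0.012 with repeated quantile normalization, and when arrays were left out SPINT1 ranged from −0.13 to 0.043, SERPIND1 from −0.031 to 0.059, A2M from −0.038 to 0.044 and SERPINA7 from −0.037 to 0.25. Whether the replicate numbers pair the piglets is not stated. Deviations of same-numbered livers correlated between 0.00 and 0.34, and in 2 of 6 pairs the own number was the best partner. These correlations, from 6 pairs only, cannot decide whether the piglets are paired. With the replicate block 5 members were higher and 2 lower, and SERPINA3-2 was called with 2.24. With 6 livers a group, the limits of precision are the intervals given beside each member.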
